A study of Mus musculus with 2 samples.

Results

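The 10 genes described here are genes by which macrophages take up, carry, store and release lipid: Apoe, Apoc2, Abca1, Abcg1, Lpl, Trem2, Gpnmb, Fabp5, Lgals3 and Pparg. They were chosen by symbol, without use of their values, and all 10 were among the 32285 genes of the files. They were measured by single-cell RNA sequencing in mouse colon lamina propria, the connective tissue below the gut epithelium, in cells that the labels call CD11b-positive (CD11b is a surface integrin of myeloid cells and the product of Itgam). A single library stood for each of the 2 groups, one titled Runx3_fl and the other Runx3. The study set RUNX3 fl/fl-Lyz2-Cre mice, in which Cre from the lysozyme promoter acts in myeloid cells, against floxed littermates. Its legends describe a pool of male animals of 8 weeks, with n = 6 and no word on whether that is per group. The titles do not say which library carried Cre, and the libraries are called by their titles alone. Their animals share the floxed Runx3 allele only if the titles follow the methods, and each library gives 1 value without animal replicates.

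With 1 library per group, no test of a difference between the groups was possible, and no p-value is given. A level is the sum of a gene's UMIs (molecular tags that count each captured RNA once) over the cells of a class, per 1000000 UMIs of those cells (CPM). Intervals in brackets are exact 95% Poisson intervals for levels, exact binomial intervals for ratios and exact Clopper-Pearson intervals for shares of cells. They cover counting error only and say nothing of differences between pools of mice. Ratios between libraries are the library titled Runx3 over the library titled Runx3_fl, on the log2 scale after adding 1 CPM to each level, while the interval of a ratio is that of the levels without the added CPM.

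Lipid handling is a core task of tissue macrophages, which engulf dying cells and must dispose of their membrane lipid. Cholesterol leaves through the transporters ABCA1 and ABCG1 onto apolipoproteins such as APOE, under the control of the liver X receptors, while lipoprotein lipase and its cofactor APOC2 free fatty acids from triglyceride. TREM2 is a receptor that senses lipid, FABP5 carries fatty acids in the cytosol, PPARG is a nuclear receptor that answers to fatty acids, and galectin-3 (Lgals3) and GPNMB are proteins of phagocytes with a high lysosomal load. In the gut, macrophages are renewed from blood monocytes that lose Ly6C and gain complement C1q genes as they mature.

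Cells with 200 to 6000 detected genes and at most 15% mitochondrial UMIs were kept, which left 11885 of 12968 cells in the library titled Runx3_fl and 8167 of 8953 in the library titled Runx3. The deposited totals were 146204416 and 75478164 UMIs, with medians of 9573 and 5731 UMIs per kept cell, so the library titled Runx3 was shallower. The libraries shared 37 barcodes, of which 27 were kept in both. Cells were put into classes by 1 UMI or more of their marker: macrophages by Csf1r with C1qa, monocytes by Ly6c2 without C1qa, conventional dendritic cells (cDC) by Flt3, neutrophils by Csf3r and T cells by Cd3e. Cells passing more than 1 of these gates were left out. For comparison, a B gate took cells with Cd79a that passed none of them, and an NK gate took cells with Ncr1 and none of Cd3e, Csf1r, C1qa, Csf3r, Flt3 and Cd79a, some of which have Ly6c2 and are also in the monocyte gate. The macrophage gate then held 261 and 346 cells in the libraries titled Runx3_fl and Runx3, out of 719 and 1083 that had both markers.

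Several facts of the libraries touch what follows. Itgam was detected in 44.6% and 38.2% of the kept cells of the libraries titled Runx3_fl and Runx3, in 63.2% and 58.4% of macrophage gate cells, in 58.9% and 52.5% of NK gate cells, and in 28.6% and 11.3% of T gate cells. Runx3, the gene named in the titles, was at 187 CPM in the macrophage gate of the library titled Runx3_fl and at 233 CPM in that of the library titled Runx3, so it was not lower there. The 3' tags do not show whether a floxed exon was lost, and this value therefore does not check the labels. Other features also set the libraries apart, and the NK gate held 1260 and 80 cells. Nr4a1, a nuclear receptor that is named here after its values were seen, was at 129 and 361 CPM in the macrophage gate. It was at 412 and 786 CPM in the NK gate and at 241 and 417 CPM over all kept cells. Whether the titles match the genotypes was not tested, and no ratio below is read as an effect of losing Runx3. Xist, the RNA of the inactive X chromosome, was at 109 CPM in the macrophage gate of the library titled Runx3_fl and at 0 of 3139942 UMIs in that of the library titled Runx3 (a count of 0 allows up to 0.955 CPM), which goes against an all-male design for the first library.

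The macrophage gate carried its defining markers in both libraries. The 10 macrophage markers summed to 2936 and 3764 CPM in the libraries titled Runx3_fl and Runx3, led by C1qa, C1qb and C1qc, and the single marker at 0 was Cd163 in the library titled Runx3_fl. The 8 monocyte markers, led by Plac8, summed to 3062 and 3350 CPM with none at 0, so the gate also held cells with monocyte transcripts. Markers of other lineages differed between the libraries in the same gate. The 5 B and plasma cell markers summed to 35.3 and 603 CPM, and the 7 neutrophil markers to 81.3 and 406 CPM (Csf3r at 0 in both by the gate, and Retnlg at 0 in the library titled Runx3_fl). The 5 mast cell and basophil markers summed to 19.5 and 116 CPM (4 of them at 0 in the library titled Runx3_fl), and the 6 epithelial markers to 14 and 100 CPM (Slc26a3 at 0 in that library). The 6 NK markers went the other way, at 299 and 94.3 CPM with none at 0. The part of these transcripts in the results below was not tested, apart from the values given with cells holding some of them left out.

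The first question was how the macrophage gate differed between the libraries. Apoe stood out, with about 3.57 times the level in the library titled Runx3, and Trem2 and Fabp5 were also more than 2-fold higher there. Abca1, the main cholesterol exporter, was lower in that library, and Lgals3, Gpnmb, Lpl and Abcg1 were close to level. Over all 12157 genes tested in this gate (those with 10 UMIs or more over both libraries) 16.8% were more than 2-fold higher in the library titled Runx3 and 3.24% more than 2-fold lower, against 3 and 0 of the 10 lipid handling genes. The median log2 ratio was 0.51 for the 10 genes and 0.30 for all genes, and 5 of the 10 lay above the latter.

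Apoe encodes the apolipoprotein that macrophages secrete to carry cholesterol away. It was at 785 CPM (755–816) in the library titled Runx3_fl, from 2579 UMIs, and at 2803 CPM (2745–2862) in the library titled Runx3, from 8801 UMIs. The log2 ratio was 1.83 (1.77–1.90). The counting intervals lay far apart, and the ratio stayed above 1 under all 14 alternative settings tried for it, between 1.48 and 2.05. Apoc2, the cofactor of lipoprotein lipase, was at 45.1 CPM (38.1–52.9) and 85.7 CPM (75.7–96.5), a log2 ratio of 0.91 (0.63–1.23). Its intervals did not overlap. A single cell held 24 of the 148 Apoc2 UMIs in the library titled Runx3_fl, and without the richest cell of each library the log2 ratio was 1.11 (0.82–1.45), past 2-fold, as it was in 4 of the 14 alternative settings. Apoc2 shares 98.9% of the 31-base words in the last 500 bases of its longest transcript with Gm44805, a readthrough gene model on the same strand that is not among the features counted.

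The exporters went separate ways. Abca1, which loads cholesterol onto lipid-poor apolipoprotein, was at 360 CPM (340–381) in the library titled Runx3_fl and at 255 CPM (238–274) in the library titled Runx3. The log2 ratio was -0.49 (-0.63 to -0.37), the lowest of the 10, and it was negative under all 14 alternative settings. Abcg1, which loads cholesterol onto mature HDL particles, was at 73.4 CPM (64.4–83.3) and 86.3 CPM (76.3–97.2), and its intervals overlapped. Apoe and Abca1, which act in one export route and are both known targets of the liver X receptors, thus lay on opposite sides of 0.

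Among the genes of uptake and lipolysis, Trem2 was rare but differed. It was at 10.0 CPM (6.92–14.1) in the library titled Runx3_fl, from 33 UMIs, and at 30.3 CPM (24.5–37.0) in the library titled Runx3, from 95 UMIs, a log2 ratio of 1.5 (1.00–2.21). It exceeded 2-fold under all 14 alternatives, with a lowest value of 1.01. Lpl, the lipase itself, was at 27.4 CPM (22.0–33.7) and 31.2 CPM (25.3–38.0), and these overlapped. A single cell held 44 of the 98 Lpl UMIs of the gate in the library titled Runx3. Without the cell richest in Lpl in each library, the log2 ratio went from 0.18 to -0.29 (-0.84 to 0.23), so no direction can be read for this gene.

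Fabp5, the cytosolic fatty acid carrier, was at 87.7 CPM (77.9–98.4) in the library titled Runx3_fl and at 219 CPM (203–236) in the library titled Runx3, a log2 ratio of 1.31 (1.12–1.52). Of the macrophage gate cells 30.7% had a Fabp5 UMI in the library titled Runx3_fl and 30.1% in the other, before any correction for depth. Fabp5 shares 22.8% of the 31-base words of its last 500 bases with 4 other genes, so its counts could be affected by reads that match more than 1 gene. Pparg, the fatty acid receptor, was at 12.2 CPM (8.70–16.6) and 21.7 CPM (16.8–27.5), a log2 ratio of 0.78 (0.25–1.43).

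Galectin-3 and Gpnmb did not separate the libraries. Lgals3 was at 833 CPM (802–865) in the library titled Runx3_fl and at 819 CPM (788–851) in the library titled Runx3. Gpnmb, a glycoprotein of the phagosome and lysosome membrane, was at 42.6 CPM (35.9–50.3) and 39.2 CPM (32.6–46.7). For Gpnmb the log2 ratio was -0.12 (-0.48 to 0.24), so a 2-fold difference lay outside the counting interval. Trem2, Fabp5 and Apoe are often grouped with Gpnmb, Lgals3 and Lpl as genes of lipid-laden macrophages, and here the first group was higher in the library titled Runx3 while the others were within 1.5-fold.

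**Figure D1:**
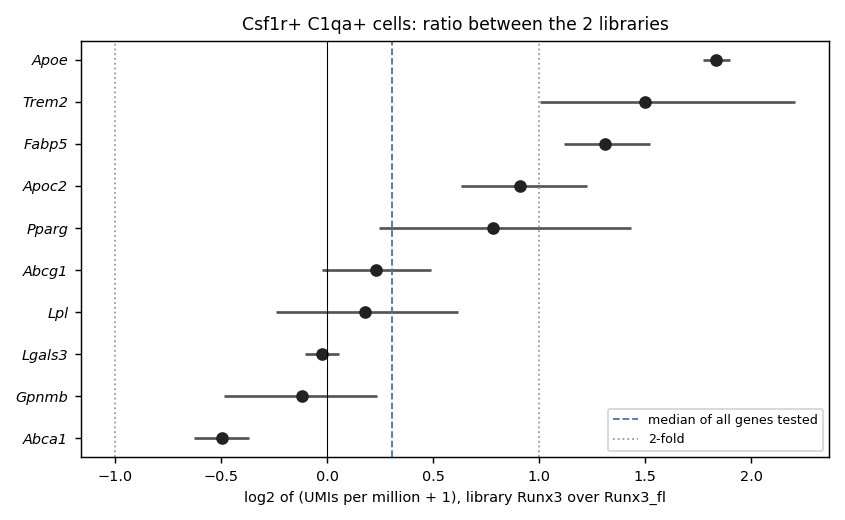
Log2 ratio of the library titled Runx3 over the library titled Runx3_fl in the macrophage gate for the 10 genes (points, 1 CPM added) with exact 95% counting intervals (bars), and the median of the 12157 genes tested. Apoe (1.83), Trem2 (1.5) and Fabp5 (1.31) lie beyond 2-fold, and Abca1 (-0.49) lies lowest.

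The Apoe ratio was as large in cells without transcripts of some other lineages. Of the macrophage gate cells, 175 of 261 (67.0%) in the library titled Runx3_fl but 32 of 346 (9.25%) in the library titled Runx3 had no UMI of Cd79a, Jchain, S100a8 or S100a9, genes of B cells, plasma cells and neutrophils. In those cells alone Apoe was at 779 CPM (742–818) and 3222 CPM (2964–3495), as far apart as in the whole gate. Fabp5 was at 91.9 CPM (79.5–106) and 111 CPM (68.1–172) there, and these overlapped, so its difference was not seen at this depth in 32 cells. Trem2 was at 11.2 CPM (7.18–16.7) and 27.9 CPM (9.05–65), the latter from 5 UMIs, and those intervals overlapped too. Gpnmb was at 40.6 CPM (32.5–50.1) and 150 CPM (99.2–219) in these cells, the latter from 27 UMIs, unlike in the whole gate where it was level. In the whole gate of the library titled Runx3, 35 of 346 cells held 97.6% of the Gpnmb UMIs. How many of the 32 cells carried the 27 UMIs was not examined, so few cells may weigh on this value.

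Inflammatory transcripts were also unequally detected, with a UMI of Nos2, Il6 or Il12b in 57.9% of macrophage gate cells of the library titled Runx3_fl and 19.7% of those of the library titled Runx3. This split was not corrected for depth. Median UMIs were 13596 and 11285.5 in cells with such a UMI and 9495.5 and 6763 in cells without, so the latter include shallower cells. Within cells with no UMI of these 3 genes, Apoe was at 1063 CPM and 2973 CPM, a log2 ratio of 1.48 (1.40–1.57). Within cells that had any of them, it was at 636 CPM and 2354 CPM, a log2 ratio of 1.89 (1.79–1.99). Apoe was thus higher in the library titled Runx3 in both kinds of cell, and higher in the cells without a detected inflammatory transcript in both libraries. Lgals3 differed in sign between these cells, at 747 and 980 CPM where an inflammatory gene was detected and at 992 and 758 CPM where none was.

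The promoters of 4 genes are shown because their genes span the range of outcomes above: Apoe and Trem2, more than 2-fold higher in the library titled Runx3, Apoc2, higher by less, and Abca1, lower. The genes were picked after their values were seen. Each window runs from 250 bases before to 50 bases after a RefSeq transcription start on GRCm38.p6, on the strand of the gene, and 7 of the 10 genes had such a window. Apoe had 3, and that of its outermost start is shown. Capitals mark matches, none of which overlap, on either strand, to letters that were searched in all 32851 RefSeq windows: GAGGAA, the core bound by the myeloid factor PU.1 (in 28.3% of windows), AGGTCA, the half-site of nuclear receptors (16.3%), TGANTCA, the AP-1 site (7.81%), GGGCGG, the GC box (35.7%), CACGTG, the E-box (7.15%), and TATAAA (13.6%).
Apoe, chr7:19699139-19699438, minus strand: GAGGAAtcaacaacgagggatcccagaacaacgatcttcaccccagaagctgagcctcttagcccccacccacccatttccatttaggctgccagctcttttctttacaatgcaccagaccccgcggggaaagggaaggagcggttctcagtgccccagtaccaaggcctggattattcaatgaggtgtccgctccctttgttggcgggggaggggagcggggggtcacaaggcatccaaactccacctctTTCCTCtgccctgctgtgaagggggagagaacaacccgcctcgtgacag
Trem2, chr17:48346151-48346450, plus strand: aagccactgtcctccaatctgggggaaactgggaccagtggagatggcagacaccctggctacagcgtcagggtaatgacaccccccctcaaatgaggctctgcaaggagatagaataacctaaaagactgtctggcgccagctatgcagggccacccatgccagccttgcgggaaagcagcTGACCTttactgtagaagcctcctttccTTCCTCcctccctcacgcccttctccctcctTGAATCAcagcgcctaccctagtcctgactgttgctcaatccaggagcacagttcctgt
Apoc2, chr7:19677892-19678191, minus strand: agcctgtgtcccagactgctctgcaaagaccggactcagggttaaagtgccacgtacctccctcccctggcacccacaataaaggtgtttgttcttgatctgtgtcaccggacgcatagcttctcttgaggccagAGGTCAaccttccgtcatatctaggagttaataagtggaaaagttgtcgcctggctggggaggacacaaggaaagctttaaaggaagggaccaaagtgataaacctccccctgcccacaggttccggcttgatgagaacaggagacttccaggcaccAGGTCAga
Abca1, chr4:53159846-53160145, minus strand: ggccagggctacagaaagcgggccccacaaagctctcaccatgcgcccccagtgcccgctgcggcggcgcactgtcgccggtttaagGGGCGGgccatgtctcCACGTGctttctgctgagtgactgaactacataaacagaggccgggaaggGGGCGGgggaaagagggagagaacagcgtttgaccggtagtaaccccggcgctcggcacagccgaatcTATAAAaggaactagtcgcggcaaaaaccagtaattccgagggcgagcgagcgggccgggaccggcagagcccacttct
The Apoe window held the PU.1 letters at 2 places and the Trem2 window at 1, beside a half-site and an AP-1 match. The Apoc2 window held the half-site at 2 places, and the Abca1 window held 2 GC boxes, an E-box and TATAAA. The letters TGTGGT, bound by RUNX factors, stood in 16.8% of all windows and in none of these 4, and among the lipid handling genes they were found in the Gpnmb window alone. The DR4 element of the liver X receptors was searched only as 2 exact copies of the half-site letters at a fixed spacing. That exact form was in 0.0152% of windows and in none of those of the 7 genes that had a window. DR4 elements whose half-sites differ from these letters were not searched. The search therefore cannot say whether the Abca1 window, or any other of these windows, holds such an element. Matches to short letters in a window describe the sequence and do not show binding.

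The genes lie at separate places in the genome except for the apolipoproteins. By GENCODE M21 on GRCm38, Apoe spans chr7:19696109-19699188 and Apoc2 chr7:19671579-19677941, both on the minus strand and in the same apolipoprotein cluster. Abca1 spans chr4:53030787-53159895 on the minus strand. Abcg1 (chr17:31057675-31117988), Trem2 (chr17:48346401-48354147), Lpl (chr8:68880491-68907448), Gpnmb (chr6:49036546-49070929), Fabp5 (chr3:10012548-10016607), Lgals3 (chr14:47367751-47386160) and Pparg (chr6:115360951-115490399) are on the plus strand. Pparg overlaps Gm44079 on the other strand.

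The second question was where the lipid handling genes were expressed among the gated classes. Of the 10 genes, 8 in the library titled Runx3_fl and 6 in the library titled Runx3 were more than 2-fold higher in the macrophage than in the monocyte gate, where 6.7% and 3.59% of all genes tested were. None of the 10 was more than 2-fold lower, against 14.3% and 5.94% of all genes. Their median log2 ratio of macrophage over monocyte gate was 1.36 and 1.13, with medians of all genes of -0.19 and -0.03. Apoe had the highest ratio in both libraries, 3.54 and 2.87. Abca1 had 1.97 and 1.18, and Abcg1 had 0.02 and -0.26, so only the first of the cholesterol exporters was enriched in the macrophage gate.

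The monocyte gate was no clean comparison. It held 5601 and 5310 CPM of the 5 B and plasma cell markers and 75.8 and 2597 CPM of the 7 neutrophil markers in the libraries titled Runx3_fl and Runx3. Restricting it to cells that also had a Csf1r UMI left 458 and 643 cells. Against these, 1 gene in the library titled Runx3_fl (Apoe, log2 ratio 2.23) and 3 in the library titled Runx3 (Apoe 2.22, Trem2 1.86 and Fabp5 1.55) were more than 2-fold higher in the macrophage gate, where 2.62% and 3.64% of all genes were. No member was more than 2-fold lower, against 2.55% and 2.16% of all genes. Lgals3 was then slightly lower in the macrophage gate, at -0.25 (-0.32 to -0.19) and -0.32 (-0.39 to -0.25), and Lpl was near level at -0.03 and -0.21. Apoe was the single member past 2-fold in this comparison in both libraries.

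**Figure D2:**
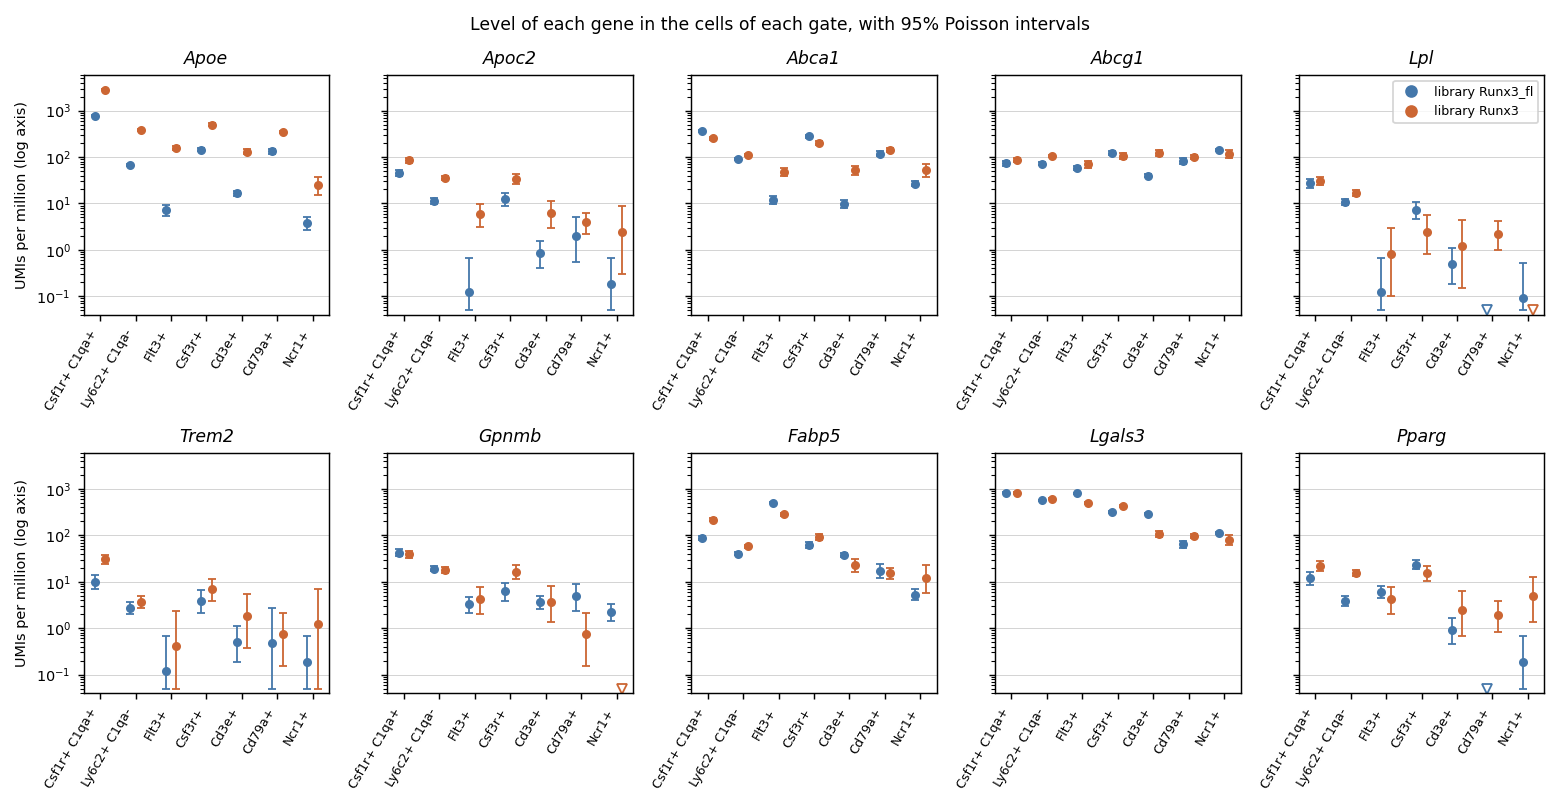
Level of each of the 10 genes by gate, named on the axis by its markers (CPM, log axis), in both libraries, with exact 95% Poisson intervals. Open triangles mark a gate with 0 UMIs, and lower ends of intervals are cut at 0.05 CPM. Apoe is highest in the macrophage gate of both libraries, and Fabp5 is highest in the cDC gate.

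Apoe was highest in the macrophage gate and lowest in the NK gate of both libraries. In the library titled Runx3_fl it was at 145 CPM in neutrophils, 134 CPM in the B gate, 66.8 CPM in monocytes, 16.4 CPM in T cells, 7.08 CPM in cDC and 3.80 CPM in the NK gate, where the intervals of the neutrophil and B gates overlapped. In the library titled Runx3 it was at 500 CPM in neutrophils, 383 CPM in monocytes, 346 CPM in the B gate, 155 CPM in cDC, 131 CPM in T cells and 24.4 CPM in the NK gate, where the intervals of cDC and T cells overlapped. Every one of these gates was higher in the library titled Runx3, by 1.36 (B) to 4.27 (cDC) on the log2 scale, and so were the cells that passed none of the 5 main gates (34.2 and 363 CPM, 3.37 on the log2 scale). In those 3979 and 1914 ungated cells 6 of the 10 genes were more than 2-fold higher in the library titled Runx3, with 16.3% of all genes, and none was lower, with 3.86%.

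Macrophage markers were also higher in the library titled Runx3 in those gates, but not in proportion to Apoe. In the cDC gate Apoe was at 7.08 and 155 CPM, a wider gap than that of the markers. In the monocyte gate, which has C1qa at 0 by its definition, the 10 markers summed to 211 and 416 CPM. The 10 macrophage markers summed to 77.4 and 198 CPM in the cDC gate of the libraries titled Runx3_fl and Runx3, 58.9 and 209 CPM in the T gate, 47.1 and 131 CPM in the B gate, 553 and 899 CPM in the neutrophil gate, 16.2 and 44.0 CPM in the NK gate and 102 and 334 CPM in the ungated cells. In the cDC gate none of the 10 was at 0 in the library titled Runx3_fl and Cd163 was in the library titled Runx3, and in the T gate Cd163 was at 0 in both. Their part in the Apoe levels of these gates was not tested. The macrophage gate held 19.6% and 16.7% of all Apoe UMIs of the kept cells, while 58.8% and 65.9% were in cells that passed more than 1 gate. Cells with both Csf1r and C1qa, counted before cells of more than 1 gate were left out, held 57.7% and 60.5%. The low share of the macrophage gate thus reflects that exclusion.

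Apoc2, Lpl, Trem2 and Gpnmb were also most abundant in the macrophage gate of both libraries when set against the monocyte, cDC, neutrophil, T, B and NK gates. Trem2 had 33 and 95 UMIs there and at most 14 in any other of these gates except the much larger monocyte gate, which had 46 and 45. Abca1 followed the same order at the top, with neutrophils next at 277 CPM (260–296) and 198 CPM (179–218). Its ratio between libraries in the neutrophil gate, -0.49, was the same as in the macrophage gate. Pparg had its highest level in neutrophils in the library titled Runx3_fl, 23.3 CPM (18.4–29.1), against 12.2 CPM (8.70–16.6) in the macrophage gate. In the monocyte gate Pparg was at 3.94 CPM (3.05–5.00) and 15.1 CPM (13–17.5), a log2 ratio of 1.71.

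Abcg1 did not follow the myeloid genes. It was highest in the NK gate of the library titled Runx3_fl, at 140 CPM (133–148), with neutrophils next at 124 CPM (112–136), and in T cells of the library titled Runx3, at 124 CPM (108–143). In T cells of the library titled Runx3_fl it was at 39.9 CPM (36.4–43.7), so the T gate differed by 1.61 on the log2 scale. Every pair of neighbours in the order of the gates overlapped in the library titled Runx3, while gates further apart did not, such as T cells and the macrophage gate.

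Fabp5 and Lgals3 were shared with dendritic cells. In the cDC gate Fabp5 was at 501 CPM (486–517) in the library titled Runx3_fl and 282 CPM (261–304) in the library titled Runx3, a log2 ratio of -0.83 that is opposite in sign to the macrophage gate. Splitting the gate by Ccr7 and Fscn1, genes of dendritic cells that migrate to lymph nodes, placed most of this transcript in 1 subset. Cells with both genes had Fabp5 at 2027 CPM (1957–2099) and 1715 CPM (1542–1901), while the other cDC had 144 CPM (135–154) and 145 CPM (129–162). Those migratory-type cells were 23.3% (128 of 549) and 9.09% (20 of 220) of the cDC gate. Within these subsets the Fabp5 log2 ratio between libraries was -0.24 (-0.40 to -0.08) and 0.00 (-0.18 to 0.19). A single cell held 129 of the 680 Fabp5 UMIs of the cDC gate in the library titled Runx3. Without the richest cell of each library the ratio over the whole gate was -1.01 (-1.15 to -0.89), and the subset ratios were not recomputed. The part of the share of migratory-type cells in the difference over the whole gate was not tested.

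Lgals3 showed the reverse within the cDC gate. It was at 162 CPM (143–184) and 252 CPM (189–329) in cells with Ccr7 and Fscn1 and at 956 CPM (933–980) and 524 CPM (494–555) in the other cDC, for the libraries titled Runx3_fl and Runx3. Abca1 had 3 and 0 UMIs in the cells with Ccr7 and Fscn1 and 93 and 115 in the others. In T cells Lgals3 was at 294 CPM (284–304) and 109 CPM (93.9–127), a log2 ratio of -1.42, and in monocytes it was near level at 569 and 618 CPM.

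**Figure D3:**
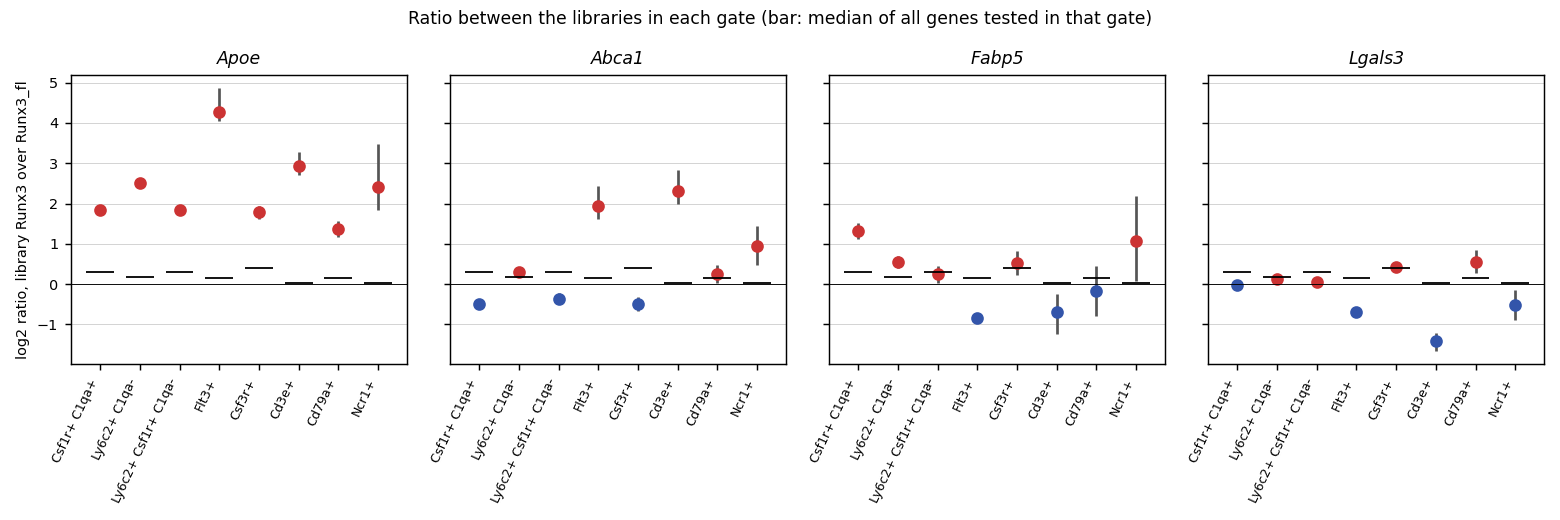
Log2 ratio of the library titled Runx3 over the library titled Runx3_fl for Apoe, Abca1, Fabp5 and Lgals3 in each gate, named on the axis by its markers (points, red above and blue below 0, 1 CPM added), with exact 95% counting intervals and short bars at the median of all genes tested in that gate. Apoe lies above 1 in every gate shown, while Fabp5 is above 0 in the macrophage gate (1.31) and below 0 in the cDC gate (-0.83).

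Counts of members per gate were read against all genes there. In the monocyte gate 3 of 10 (Apoe, Apoc2 and Pparg) were more than 2-fold higher in the library titled Runx3, with 10.8% of all genes, and none was lower, with 4.11%. In the neutrophil gate 3 (Apoe, Apoc2 and Gpnmb) were higher, with 20.1% of all genes, and 1 (Lpl, from 24 and 5 UMIs) was lower, with 4.57%. Of the 8 members with enough UMIs in the cDC gate 3 (Apoe, Apoc2 and Abca1) were higher, with 11% of all genes, and none was lower, with 4.47%. Apoc2 rested there on 1 and 14 UMIs in the libraries titled Runx3_fl and Runx3, and 8 of the 14 were in 1 cell. Apoe and Apoc2 were the genes that recurred, and Trem2 was level in the Ly6c2-positive, Csf1r-positive, C1qa-negative cells, at 7.51 CPM (5.46–10.1) and 7.63 CPM (5.37–10.5).

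The third question was whether the genes differed between macrophage gate cells with Ly6c2, as recent monocyte descendants have, and those without. Cells with a Ly6c2 UMI were 169 of 261 (64.8%, 58.6 to 70.5) in the library titled Runx3_fl and 279 of 346 (80.6%, 76.1 to 84.7) in the library titled Runx3. Apoe was at 604 CPM in Ly6c2-positive and 1193 CPM in Ly6c2-negative cells of the first library and at 2561 and 4028 CPM in the second. It was therefore higher in Ly6c2-negative cells in both, by 0.98 (0.87–1.09) and 0.65 (0.58–0.72) on the log2 scale. In the library titled Runx3, 1 of 67 Ly6c2-negative cells held 421 of the 2085 Apoe UMIs. Without the richest cell of each subset, the levels of that library were 2347 CPM in Ly6c2-positive and 3342 CPM in Ly6c2-negative cells, a smaller gap. Between libraries Apoe differed by 2.08 in the Ly6c2-positive and 1.75 in the Ly6c2-negative cells, where 19.1% and 15.8% of all genes were more than 2-fold higher. In each subset 3 members passed that mark (Apoe, Trem2 and Fabp5 in the Ly6c2-positive, Apoe, Trem2 and Lpl in the Ly6c2-negative cells), and the members lower by as much were 1 (Lpl) and 0, against 3.4% and 8.06% of all genes.

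Apoc2 had the opposite arrangement to Apoe, which lies in the same apolipoprotein cluster. It was at 56.8 CPM (47.4–67.5) in Ly6c2-positive and 18.8 CPM (11.3–29.3) in Ly6c2-negative cells of the library titled Runx3_fl. In the library titled Runx3 it was at 98.0 CPM (86.4–111) and 23.2 CPM (12–40.5). The log2 ratios of Ly6c2-negative over Ly6c2-positive cells were -1.55 and -2.03, with intervals below 0 in both libraries. Among all genes tested, 3.86% and 10.5% were more than 2-fold lower in the Ly6c2-negative cells, and 5.75% and 5.65% more than 2-fold higher. Of the 10 genes, 1 (Apoc2) and 2 (Apoc2 and Fabp5) were lower by that much, and 0 and 2 (Lpl and Trem2) higher.

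Fabp5 and Trem2 parted between these subsets in the library titled Runx3. Fabp5 was at 89.4 CPM (77.5–103) and 83.9 CPM (67.0–104) in Ly6c2-positive and Ly6c2-negative cells of the library titled Runx3_fl, which overlapped. In the library titled Runx3 it was at 251 CPM (232–271) and 56.0 CPM (37.5–80.5). The higher Fabp5 level of that library was thus found in its Ly6c2-positive cells, and in the Ly6c2-negative cells the log2 ratio between libraries was -0.57 (-1.24 to 0.04). Trem2 was higher in the library titled Runx3 in both subsets, with log2 ratios of 1.42 (0.77–2.32) and 2.04 (1.14–3.19). Abca1 did not vary with Ly6c2 in the library titled Runx3_fl, at 361 and 359 CPM.

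The ratios of Lpl and Lgals3 between libraries had opposite signs in the subsets, and single cells weighed on both. Lpl was at 31.3 and 12.6 CPM in Ly6c2-positive cells and at 18.8 and 126 CPM in Ly6c2-negative cells of the libraries titled Runx3_fl and Runx3. In the last group 44 of 65 UMIs came from 1 cell of 67, and without it the level was 43.7 CPM (27.0–66.8). Without the richest cell of each library, the Lpl log2 ratios were 1.79 (0.78–3.03) in Ly6c2-negative and -1.11 (-1.92 to -0.47) in Ly6c2-positive cells, so the signs stayed opposite. Lgals3 was at 857 and 766 CPM in Ly6c2-positive cells and at 780 and 1086 CPM in Ly6c2-negative cells. Left out in the same way, the richest cells took the Ly6c2-negative log2 ratio of Lgals3 from 0.48 to 0.07 (-0.12 to 0.25).

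**Figure D4:**
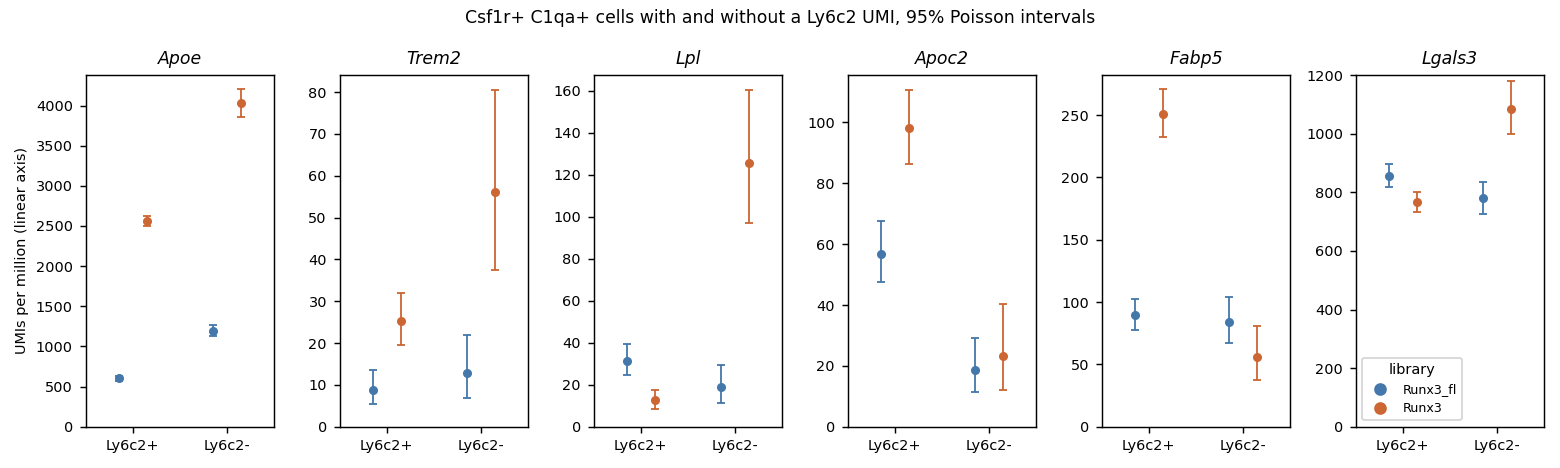
Level (CPM, linear axes from 0) of Apoe, Trem2, Lpl, Apoc2, Fabp5 and Lgals3 in macrophage gate cells with and without a Ly6c2 UMI, in both libraries, with exact 95% Poisson intervals. Apoe is higher and Apoc2 lower in Ly6c2-negative cells of both libraries.

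The summed levels were then set against the number of cells with the transcript. Because the libraries differed in depth, cells were thinned to 2000 UMIs apiece, leaving out 6 of 261 and 54 of 346 macrophage gate cells of the libraries titled Runx3_fl and Runx3. Apoe was then detected in 37.6% (31.7–43.9) and 70.9% (65.3–76.0) of cells. Unthinned, the shares were 57.1% and 86.7%. In NK and T cells, which should lack Apoe, the thinned shares were 0.637% and 2.35% in the library titled Runx3_fl but 5.06% and 14.5% in the library titled Runx3, and in the B gate they were 21.1% and 36.6%. Median UMIs before thinning were 12606 and 7392 in the macrophage gate and 11033 and 6600 in the T gate. The macrophage gate was above all of these in both libraries, and the level in lymphocyte gates was higher in the library titled Runx3.

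The other shares differed by fewer percentage points between the libraries. Abca1 was detected in 47.1% of thinned cells of the library titled Runx3_fl and 31.2% of those of the library titled Runx3, the same direction as its level. Lgals3 was detected in 61.2% and 63.0%, Fabp5 in 10.6% (7.09–15.0) and 13% (9.38–17.4), and Trem2 in 1.96% (0.64–4.52) and 6.16% (3.69–9.57). For Fabp5 the intervals overlapped, so its higher level was not matched by a share of cells that differed beyond counting error. A thinned macrophage gate cell had UMIs of 2 of the 10 genes at the median in both libraries, and 11% and 4.79% of cells had none.

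Few cells carried most of the transcripts. The 10% of macrophage gate cells richest in Apoe (27 and 35 cells) held 63.0% and 64.0% of its UMIs, and the highest single cells had 109 and 616 Apoe UMIs. The median cell had 1 and 6 Apoe UMIs. Fabp5 was more concentrated, with 77.4% and 86.5% of UMIs in the richest 10%, and Lgals3 less, with 39.9% and 47.0%. In the library titled Runx3_fl, Abca1 was detected in 60.4% (49.9–70.3) of thinned cells with Apoe and 39.0% (31.4–47.0) of those without. These shares were 32.9% (26.5–39.7) and 27.1% (18.0–37.8) in the library titled Runx3, which overlapped.

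The wider pathways were described by 6 gene lists, whose members were chosen with earlier results of these data known. Of 20 genes of lipid efflux and liver X receptor targets, 19 were tested in the macrophage gate, and 2 were more than 2-fold higher in the library titled Runx3 while none was lower, beside 16.8% and 3.24% of all genes in this gate. These were Apoe and Scd1, a fatty acid desaturase, at 2.74 and 38.9 CPM. The median log2 ratio was 0.23, beside 0.30 over all genes. Arl4c, a small GTPase that is a known liver X receptor target, was at -0.38, Scd2, a fatty acid desaturase, at -0.36 and Mylip, a ubiquitin ligase, at 0.07. The other tested genes of the list were within 2-fold and lay on both sides of 0. They ran from -0.75 (Lpcat3) to 0.95 (Apoc1, from 6 and 14 UMIs), with Abca1 at -0.49 and Apoc2 at 0.91. Whether these genes share a regulator here was not tested.

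Of 22 genes of lipid uptake and storage, 18 were tested, with 3 higher (Dgat2, Fabp5 and Angptl4, the last from few UMIs), 1 lower and a median of 0.43. The share higher was near the 16.8% of all genes, so the count is no result about this list. The lower gene was Acsl1, which activates long-chain fatty acids, at 127 and 39.5 CPM (log2 ratio -1.66, -1.99 to -1.40). The receptor Lrp1, which binds APOE-bearing particles, was at 0.70. Of 20 genes of lipid-associated macrophages 19 were tested (Clec7a was not analysed here), and 3 were higher (Trem2, Fabp5 and Apoe), none lower, with a median of 0.37 and the same 16.8% and 3.24% of all genes beside it. Outside the 10 genes, Cd63 was at 0.68, the cathepsin Ctsb at 0.55 and Lipa, the lysosomal acid lipase, at -0.56. None of the 13 tested genes of that list that are not among the 10 passed 2-fold.

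The remaining lists were near the median of all genes, and the share of each that was more than 2-fold higher was under the 16.8% of all genes. Of 18 lysosomal lipid breakdown genes 1 was higher (Tfeb, a regulator of lysosomal genes, 1.10) and none lower, with a median of 0.35. Of 22 tested genes of cholesterol synthesis 1 was higher (Dhcr7) and none lower, with a median of 0.22. In that list Srebf2, its regulator, was at 0.56 and Hmgcs1 at -0.53. Of 15 tested genes of Pparg targets and fatty acid oxidation 2 were higher (Ppargc1b and Angptl4) and none lower, with a median of 0.24, while Slc25a20, the mitochondrial carnitine carrier, was at -0.97, Acadl at -0.50 and Ppard at 0.42.

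The genes most alike in pattern were sought over 14 points, the 7 gates in each of the 2 libraries, among 4607 genes. The points share libraries and depth, so Pearson's r is a description. Apoe was most like Id3 (0.94), Dennd1a (0.94) and Itga9 (0.92). Apoc2 was most like C3ar1 and Hmox1 (both 0.96), and Trem2 like C3ar1 (0.93), C1qb (0.92) and Acp2 (0.92). Lpl was most like the scavenger receptor Msr1 (0.94), Pparg like the chemokine Ccl6 (0.97), Fabp5 like Iscu (0.95), Lgals3 like Mospd2 (0.96), Abca1 like Tgfbr1 (0.91) and Gpnmb like Mmp14 (0.91). None of the 10 was among the 3 nearest genes of another.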

How the data were processed

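The authors made 10x Genomics 3' version 3 libraries of sorted colon lamina propria cells. The deposited values are UMI counts per gene and cell, whole numbers and not normalized, filtered by the authors to called cells with Cell Ranger 7.1.0 per the file headers. The submitters' processing notes name mm10 and Seurat 4. Depth was 146204416 and 75478164 UMIs. Free RNA was not removed, and doublets were limited by the bound on genes and by leaving out cells of more than 1 gate.

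Counts were summed over cells of a gate (1 UMI or more) and divided by all their UMIs. Log2 ratios used 1 CPM added, "tested" meant 10 UMIs or more over both sides, and "called" meant past 2-fold. With 1 library per group no test was run. Ratios and counting intervals were tried on independent Poisson counts simulated from the macrophage gate sums. That checks the calculation only, because such counts do not gather in single cells as the real UMIs do. The genes named from the lists were, per list, the 3 that are not among the 10 with the largest absolute log2 ratio among those at 50 CPM or more in either library and in 10% or more of cells. Some items that these rules select are not reported here. The members, lists and splits were chosen with earlier results of these data known, and the promoters shown after the values were seen. Annotation was GENCODE M21, with 32158 of 32285 IDs matched, and promoter windows and sequences were from RefSeq. Scripts ran in Python 3.11.15 with pandas 2.3.3, scipy 1.17.1, numpy 2.4.6 and matplotlib 3.10.9.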

Additional observations from a re-analysis of the deposited data

Results flagged for a closer look

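With 1 library per group these differences between cell classes were not tested. Each of the following log2 ratios, the library titled Runx3 over the library titled Runx3_fl, had an interval on the other side of 0 from that of the class it is set beside. Abca1 was at 0.29 in the monocyte gate, 1.94 in the cDC gate and 2.30 in the T gate, beside -0.49 in the macrophage gate. Fabp5 was at -0.83 in the cDC gate and -0.69 in the T gate, beside 1.31 in the macrophage gate. Lpl was at 2.68 in Ly6c2-negative macrophage gate cells, beside -1.25 in Ly6c2-positive ones, and at 1.79 in the former without the richest cell of each library. Lgals3 was at 0.48 in Ly6c2-negative macrophage gate cells, beside -0.16 in Ly6c2-positive ones, and at 0.07 without the richest cells. In cDC without Ccr7 and Fscn1 together Lgals3 was at -0.87, beside 0.63 in cDC with both.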

How the results depend on the processing

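The 30 ratios of single genes were recomputed under 14 (between libraries) or 11 (between gates) alternatives each, 360 values in all. Of these, 234 stayed inside the counting interval, 125 moved outside it and 1 reversed. Reversal was counted only for ratios past 2-fold in the main setting, and smaller ratios also changed sign. Between libraries the sign was kept in 12 of 14 alternatives for Abcg1 and Pparg and in 11 of 14 for Lpl, Gpnmb and Lgals3. It was kept in all 14 for the other genes. Beside 3 genes more than 2-fold higher in the library titled Runx3 in the macrophage gate, 5 were when cells of more than 1 gate were kept (719 and 1083 cells). Beside 0 higher in the library titled Runx3_fl, there was 1 (Pparg, -1.10, from 28 and 1 UMIs) in macrophages without Cd79a, Jchain, S100a8 or S100a9, and 1 (Abca1, -1.08) after subtracting the level of the Cd79a gate. Those alternatives, and macrophages without Nos2, Il6 or Il12b, were added after seeing the data. The 8 genes higher in the macrophage than the monocyte gate of the library titled Runx3_fl became 1 when monocytes also needed Csf1r and 3 with 10 CPM added, and the 6 in the library titled Runx3 became 3 with Csf1r. Lpl then reversed, to -0.030, in the library titled Runx3_fl. Fabp5 kept a ratio over 2-fold between libraries in 12 of 14 alternatives, with 0.28 as the lowest, Gpnmb ranged from -0.53 to 1.86 and Lpl from -0.76 to 1.43. The causes were not tested. Shares of cells with a UMI moved beyond their intervals in 20 of 20 cases without thinning and in 16 of 20 when thinned to 1000 UMIs. Such shares follow the depth per cell by construction, so these counts do not say whether the differences between libraries held. No paired analysis was possible because each group had 1 library.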
